A study of Mus musculus with 6 samples.

Results

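The 3 arrays titled replicate 1 were set against the 3 arrays titled replicate 2, paired within the 3 groups of a mouse expression study. The members were chosen by the number in the array title, and they are all 6 of the 6 arrays of the series. Each group therefore gave 1 pair and 1 difference, replicate 1 minus replicate 2. The replicate 1 arrays are 1 HFGSC, 1 GSC and 1 HF array, and so are the replicate 2 arrays. The HFGSC arrays held hair follicle-derived germline stem cells from dorsal skin follicles of 4-month-old OG2 mice. The GSC arrays held testis germline stem cells (OG2 mice of 3 months), and the HF arrays held hair follicle of the dorsal skin of 2-month-old OG2 mice. All 3 groups share the OG2 strain, and the labels name no other allele or agent. The labels tie a replicate number to no animal, culture, chip or day, and do not say whether animals were pooled. The p-values below measure only the spread between these arrays, which may be technical.

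Biotinylated cRNA made from total RNA was read on Illumina bead arrays, on which a gene is read by 1 or more short probes bound to beads. The level of a gene is given as a log2 signal after background correction and quantile normalization, so that 1 unit is a factor of 2, and a probe counts as detected where its detection p was under 0.05. After a filter on dim probes, 10913 genes were tested, each read by its brightest kept probe.

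Replicate arrays of a group measure samples that carry the same labels. Chaperones fold new proteins, mitotic genes are expressed in dividing cells, replication-dependent histone mRNAs are made in S phase and lack a poly(A) tail, and interferon response genes are switched on by cytokines and nucleic acids. The amplification that makes the cRNA starts from poly(A) tails. The cause of the differences was not tested here.

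The replicate number was the second source of variation between the arrays. Over all tested genes, the group accounted for 80.4% of the variation between arrays, the replicate number for 14% and the remainder for 5.58%. The replicate number was the main source in 2503 genes. The HFGSC replicate 1 array was closer to the GSC replicate 1 array than to its own partner. The root mean square log2 difference was 0.635 between the HFGSC and GSC replicate 1 arrays, against 0.954 between the HFGSC and GSC replicate 2 arrays. Between the 2 arrays of a group it was 0.986 for HFGSC, 0.861 for GSC and 0.737 for HF. The HFGSC and GSC arrays were 1.69 to 2.02 from the HF arrays.

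**Figure D1:**
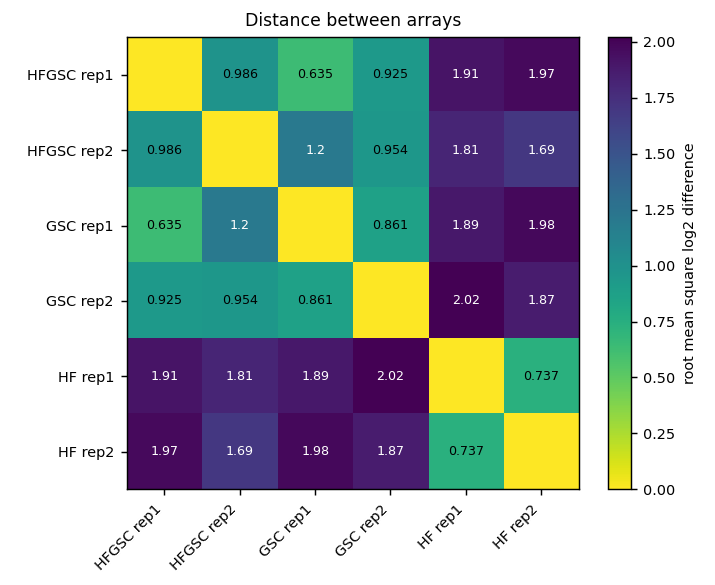
The grid gives the root mean square difference of log2 signal over 10913 genes between each 2 of the 6 arrays, as the number in the cell and as its colour. The HFGSC and GSC replicate 1 arrays stand closest, at 0.635, and the HFGSC pair is 0.986 apart.

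The arrays also differed in how many probes they detected. The replicate 1 arrays detected 19552 (HFGSC), 19476 (GSC) and 16593 (HF) of 45281 probes, against 18907, 18772 and 16094 on the replicate 2 arrays in the same order. The replicate 1 array was higher in 3 of 3 pairs, by 616 ± 106 probes (SD, n = 3 pairs). The two-sided exact permutation p was 0.25, which is the smallest p that 3 pairs can give. The median intensity before normalization was 151, 151 and 152 on the replicate 1 arrays, against 146, 113 and 109 on the replicate 2 arrays, for HFGSC, GSC and HF. The replicate 1 array thus had the higher median in all 3 pairs, least so in the HFGSC pair. On every array fewer probes were detected than not, so the median lies among undetected probes and reads background. The 5th percentile was likewise higher on the replicate 1 array, by 3.79 (HFGSC), 19.5 (GSC) and 24.4 (HF). The 95th percentile had no common direction, with differences of -970, 217 and 342 in the same order. Mean intensity had no common direction, at 911, 1011 and 1149 on the replicate 1 arrays and 1085, 972 and 1043 on the replicate 2 arrays.

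The labelled identities were set against defining markers. Germ cell genes marked the HFGSC and GSC arrays: Dazl, an RNA-binding protein of germ cells, had log2 signals of 14.39 (HFGSC), 14.89 (GSC) and 4.99 (HF) on the replicate 1 arrays, against 12.92, 13.40 and 5.13 on the replicate 2 arrays. Dazl, Ddx4 and Mov10l1 were detected on 0 of 2 HF arrays. Of the follicle and epidermal keratins, Krt5, Krt14 and Krt15 were detected on 0 of 2 HF arrays, and on no array of the other groups. Of 2 integrins of the basal keratinocyte list, Itga6 was detected on both arrays of every group and Itgb4 on 0 of 2 HF arrays. Col1a1 and Vim, genes of fibroblasts and other mesenchymal cells, were detected on both arrays of every group. Other genes of that kind were not: Dcn, Pdgfra and Thy1 had 4.93 to 5.27 on the HF arrays, whose lowest detected signals were 6.39 and 6.50. Of the 20 fibroblast and matrix genes tested, 12 were detected on all 6 arrays. For each marker named here, detection did not differ between the replicate numbers.

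The direction of the replicate difference was shared between groups more in some pairs than in others. Across 10913 genes, the Pearson correlation of the differences was 0.757 between the GSC and HF pairs, 0.58 between the HFGSC and GSC pairs and 0.436 between the HFGSC and HF pairs. The shares of genes with the same sign were 78.7%, 70.4% and 65.9%. These are descriptions across genes, which share arrays and normalization and are not independent replicates. The difference had 1 sign in all 3 groups in 6275 genes, 57.5% of those tested. Of these, 2397 genes were higher in replicate 1 (22.0% of the genes tested) and 3878 were lower (35.5%). The larger count of lower genes goes with a median difference over all genes of -0.17, which was -0.052 in the HFGSC pair, -0.24 in the GSC pair and -0.11 in the HF pair.

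Large differences ran mostly toward replicate 1. At least 2-fold in all 3 groups, 499 genes were higher in replicate 1 (4.57% of the genes tested) and 56 were lower (0.513%). These counts moved with the background correction: they were 321 and 2 with the authors' log2 values, 330 and 3 without background correction, and 426 and 19 with an offset of 50. Within single pairs, 1402 genes were at least 2-fold higher and 1465 lower in the HFGSC pair, 1443 higher and 788 lower in the GSC pair, and 1040 higher and 571 lower in the HF pair. In 1005 genes (9.21%) all 3 replicate 1 arrays lay above all 3 replicate 2 arrays, and in 811 (7.43%) all 3 lay below.

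A limma model with group as a block and replicate number as the contrast gave 1477 genes at a Benjamini-Hochberg adjusted p under 0.05. Of them 1057 were higher in replicate 1 (9.69% of the genes tested) and 420 were lower (3.85%), and all 1477 had 1 sign in the 3 groups. At an unadjusted p under 0.05 there were 3874 genes. The calls rested on few arrays, with 2 residual degrees of freedom over all 3 pairs and 1 when a pair was left out. By this fit, 0 genes passed limma without the GSC pair (1815 at an unadjusted p under 0.05), 1924 higher and 2213 lower genes passed without the HFGSC pair, and 894 higher and 322 lower genes passed without the HF pair. With median scaling in place of quantile normalization, the median of all genes moved to -0.27 and 1079 higher and 1569 lower genes passed, so that 40.7% of calls were higher in replicate 1, against 71.6% with quantile normalization. Which direction holds more calls therefore turned with the scaling.

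**Figure D2:**
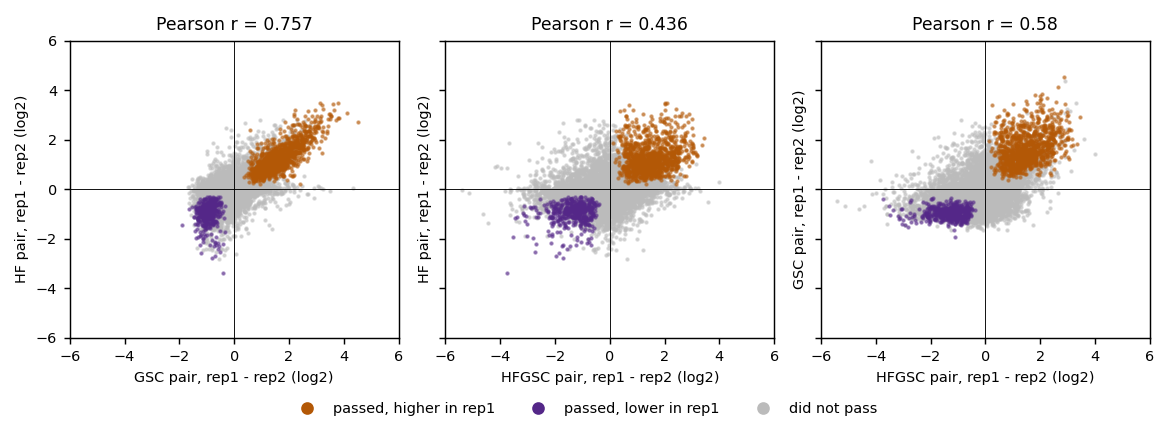
Each point is 1 of 10913 genes, placed by its replicate 1 minus replicate 2 difference (log2) in 1 pair on the horizontal axis and in another pair on the vertical axis, coloured by the limma result over all 3 pairs. The GSC and HF differences lie closest to a line (Pearson 0.757) and the HFGSC differences spread most widely.

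The 15 genes with the largest shared excess in replicate 1 encode proteins of chromatin, RNA handling, ubiquitin transfer, protein folding and transport. Their mean differences were 2.43 to 3.37, which are 5.37-fold to 10.3-fold, with limma adjusted p from 0.00476 to 0.00596. For 4 of them the probe was not detected on every replicate 2 array. For all 15, the lowest replicate 1 array lay above the highest replicate 2 array, as it did for 9.21% of all genes tested. The 15 were chosen by these same differences, so the separation and the adjusted p-values follow in large part from that choice.

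Hsp90aa1, the stress-inducible cytosolic form of the HSP90 chaperone, had log2 signals of 9.68 (HFGSC), 10.70 (GSC) and 9.86 (HF) on the replicate 1 arrays, against 6.83, 6.16 and 7.14 on the replicate 2 arrays. The GSC pair was farthest apart, and the arrays of the 2 replicate numbers did not overlap. The difference was 3.37 ± 1.01 (SD of the 3 pair differences), 10.3-fold, with a limma adjusted p of 0.00596. Limma's p rests on a spread moderated over all genes, which gave this gene an SE of 0.40.

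Ppp4r3b, a regulatory subunit of protein phosphatase 4, had 9.72, 10.38 and 10.53 on the replicate 1 arrays, against 6.82, 6.93 and 7.49 on the replicate 2 arrays, in the order HFGSC, GSC and HF. Its difference was 3.13 ± 0.28 (SD of 3 pair differences), with a limma adjusted p of 0.00476. Zc3h15, a zinc finger partner of the DRG1 GTPase, had 10.62, 10.97 and 10.22 on the replicate 1 arrays, against 7.97, 6.86 and 7.13 on the replicate 2 arrays. The groups of arrays did not overlap for either gene, with a gap of over 2 log2 units each.

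Chromatin and nuclear genes among the 15 were Mbtd1, a subunit of the TIP60 acetyltransferase complex, Kmt2e, a SET-domain chromatin protein, Ahctf1, the nucleoporin ELYS, and Matr3, an RNA-binding protein of the nuclear matrix. Matr3 had the highest signals of the set, at 14.14, 14.57 and 13.61 on the replicate 1 arrays, against 11.32, 12.18 and 11.32 on the replicate 2 arrays for HFGSC, GSC and HF. Kmt2e had 9.04, 8.68 and 9.39 on the replicate 1 arrays, against 6.51, 5.86 and 6.45 on the replicate 2 arrays, of which only 1 of 3 detected its probe. Kmt2e and Odr4, a gene named for its Caenorhabditis elegans counterpart in odorant receptor trafficking, were thus near background on most replicate 2 arrays.

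RNA handling and translation were represented by Cnot1, the scaffold of the CCR4-NOT deadenylase complex, Fxr1, an RNA-binding relative of the fragile X protein, Bclaf1, a nuclear factor in RNA processing, and Bzw1, a mimic of an initiation factor. Bzw1 had 12.51, 12.68 and 12.10 on the replicate 1 arrays, against 10.13, 9.76 and 9.37 on the replicate 2 arrays. Trip12, an E3 ubiquitin ligase, had 13.16, 13.32 and 11.72 against 10.53, 10.28 and 9.20 in the same order. Naa15, a subunit of the NatA N-terminal acetyltransferase, and Ergic2, a protein of the membranes between endoplasmic reticulum and Golgi, complete the set, with differences of 2.80 and 3.02.

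**Figure D3:**
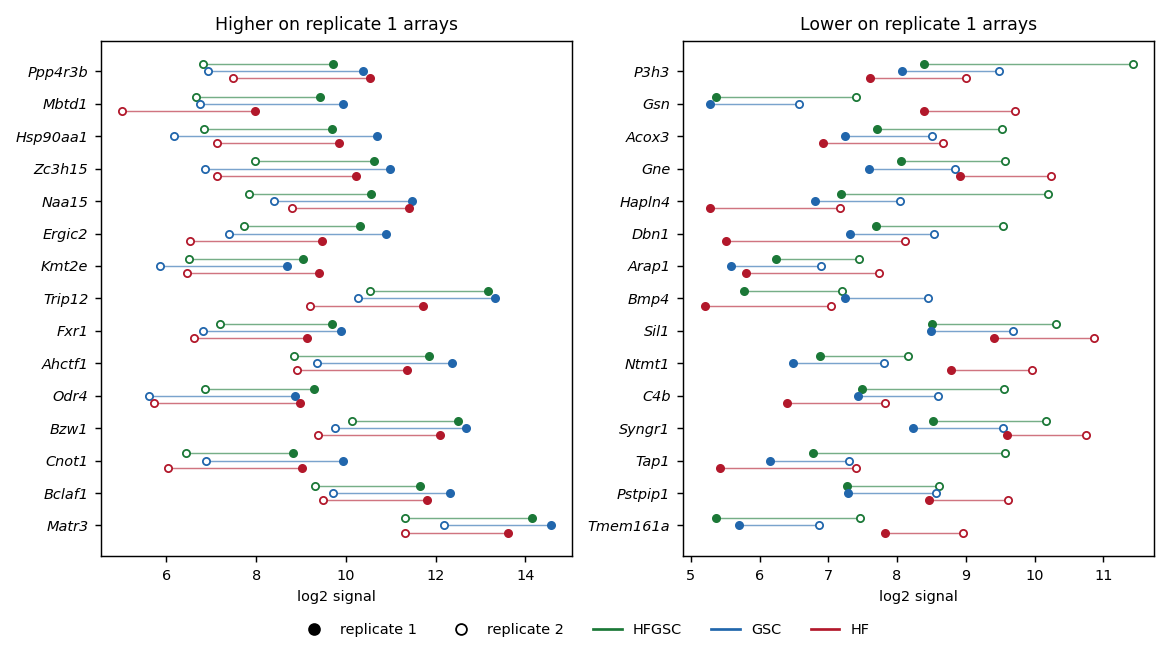
Each row is a gene and each short line 1 pair, with the replicate 1 array as a filled point and the replicate 2 array as an open point on the log2 signal axis, coloured by group. The left panel has the 15 genes with the largest shared excess in replicate 1, for which filled and open points do not overlap, and the right panel the 15 lower in replicate 1, of which 8 do not overlap. Both sets were chosen by these same differences.

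The 15 genes with the largest shared deficit in replicate 1 moved less. Their mean differences were -2.05 to -1.25, with limma adjusted p from 0.014 to 0.0285. The probe was detected on all 3 replicate 2 arrays for each of the 15, but for 7 of them not on every replicate 1 array, where the low value only bounds the level. The replicate 1 and replicate 2 arrays did not overlap for 8 of them, against 7.43% of all genes tested in this direction. These 15 were likewise chosen by the differences shown. For the other members, the level in 1 group on replicate 1 exceeded that in another group on replicate 2, although each pair ran the same way.

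P3h3, of the collagen prolyl 3-hydroxylase family, had 8.39 (HFGSC), 8.07 (GSC) and 7.61 (HF) on the replicate 1 arrays, against 11.43, 9.49 and 9.01 on the replicate 2 arrays. Its difference was -1.95 ± 0.94 (SD of 3 pair differences), with a limma adjusted p of 0.0196, and the HFGSC pair was farthest apart. Hapln4, a link protein of the hyaluronan matrix, had 7.18, 6.81 and 5.28 against 10.20, 8.05 and 7.17 in the same order, a difference of -2.05. Its HF replicate 1 value lay below the lowest detected signal of that array (6.39), and so reads only as not above background. Its replicate 1 level in HFGSC just exceeded its replicate 2 level in HF.

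Several others act on the cytoskeleton: Gsn severs actin filaments, Dbn1 binds them, and Pstpip1 is a cytoskeletal adaptor. Dbn1 had 7.70, 7.32 and 5.51 on the replicate 1 arrays, against 9.54, 8.54 and 8.11 on the replicate 2 arrays. The HF replicate 1 value of Dbn1 was below the lowest detected signal of that array (6.39). Gsn had 5.36, 5.28 and 8.39 against 7.41, 6.58 and 9.72, so that it was above background on 1 of 3 replicate 1 arrays.

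Immune and secreted products in the set were Tap1, a subunit of the peptide transporter for antigen presentation, C4b, a complement component, and Bmp4, a ligand of the bone morphogenetic protein family. Tap1 had 6.78, 6.15 and 5.42 on the replicate 1 arrays, against 9.57, 7.30 and 7.41 on the replicate 2 arrays. Its HF replicate 1 value lay below the lowest detected signal of that array (6.39). Bmp4 had 5.78, 7.24 and 5.20 against 7.20, 8.44 and 7.04, and was detected on 1 of 3 replicate 1 arrays. The remaining members were Acox3, a peroxisomal acyl-CoA oxidase, Gne, an enzyme of sialic acid synthesis, Sil1, an exchange factor of the chaperone BiP, Ntmt1, a protein N-terminal methyltransferase, Syngr1, a synaptic vesicle protein, Tmem161a and Arap1, with differences of -1.61, -1.36, -1.49, -1.26, -1.37, -1.47 and -1.48.

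A gene's other probes did not always repeat its difference. Over 4085 genes with 2 or more kept probes, the differences of the first and second probe correlated at 0.73 (Pearson, across genes) and had the same sign in 78.4%. Among genes at least 2-fold higher in all 3 groups, 205 of 214 second probes had the same sign, with a median of 1.32 against 1.72 for the first probes. Among genes at least 2-fold lower, 13 of 13 did, with -0.81 against -1.29. These genes were chosen by the difference of the first probe, which is the brightest, and not by that of the second.

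Trip12 showed both patterns within 1 gene: its other 3 kept probes had differences of 2.82, 3.31 and 1.17, beside 2.73 for the first. The second probe of Ppp4r3b repeated the first, at 2.98 against 3.13, and that of Syngr1 did so at -1.54 against -1.37. For Matr3 the second probe had 9.83 (HFGSC), 10.33 (GSC) and 9.94 (HF) on the replicate 1 arrays, against 9.37, 10.57 and 9.80 on the replicate 2 arrays, a difference of 0.12 against 2.50 for the first.

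Mbtd1 differed in the same way, with 0.11 for its second probe and 2.97 for its first. For Bclaf1, 1 other probe gave 2.51 and another -0.18, beside 2.43. The 2 other probes of Naa15 gave 0.58 and 0.35, beside 2.80. In these 4 genes and in Trip12, probes of 1 gene differed from each other by more than 2 log2 units. The other probes of the remaining genes kept the sign but were smaller. They gave 1.15 beside 2.83 for Ahctf1, 1.20 beside 2.68 for Bzw1 and 1.09 beside 2.80 for Cnot1. For Ergic2 it was 2.34 beside 3.02, and for Gne -0.56 beside -1.36. Where the probes lie in the transcripts was not analysed here.

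The functional lists, each described by its counts beside the background of 9.69% higher and 3.85% lower, fell on both sides. With median scaling in place of quantile normalization, the results of 12 gene lists moved and those of 21 stayed the same. With the authors' log2 values 1 moved and 32 stayed the same. Chaperones had the highest median of the function lists. Of 37 heat shock proteins and chaperones tested, 15 were higher in replicate 1, 1 was lower and 21 did not pass, and the median difference was 0.82 against -0.17 over all genes. The median was 0.58 in the HFGSC pair, 0.94 in the GSC pair and 0.76 in the HF pair. It was 0.47 with the authors' log2 values.

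The higher members included the HSP90 of the endoplasmic reticulum and the ring that folds actin and tubulin. Hsp90b1, that HSP90, had 13.35 (HFGSC), 13.89 (GSC) and 13.60 (HF) on the replicate 1 arrays, against 11.26, 10.50 and 11.34 on the replicate 2 arrays, a difference of 2.58 (limma adjusted p 0.00525). Of the 8 subunits of the TRiC chaperonin, which were singled out after their values were seen, 6 passed as higher, with differences over the 8 of 0.82 to 2.16. Cct8 had 14.19, 14.29 and 13.23 on the replicate 1 arrays, against 12.00, 11.73 and 11.50 on the replicate 2 arrays.

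Genes known for their induction by heat were found on both sides of the threshold, and were singled out after their values were seen. Beside Hsp90aa1, Hsph1, Hspd1 and Hspe1 passed as higher, with differences of 1.46, 1.68 and 1.16. Hspa1a, an inducible HSP70 gene, differed by -0.07, Dnajb1 by -0.18 and Hspb1 by -0.73, and these 3 did not pass. Cryab, a small heat shock protein, passed as lower, with 8.71, 7.93 and 10.05 on the replicate 1 arrays, against 10.21, 8.91 and 11.39 on the replicate 2 arrays.

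Mitotic genes were next. Of 26 genes of G2/M and mitosis, 12 were higher in replicate 1 and 0 were lower, with a median of 0.61 (0.79 in the HFGSC, 0.65 in the GSC and 0.53 in the HF pair). Kif23, a kinesin of the midzone, had 11.11, 11.92 and 12.16 on the replicate 1 arrays, against 9.07, 9.35 and 9.51 on the replicate 2 arrays. Top2a, the topoisomerase of dividing cells, had 9.70, 11.23 and 10.79 against 7.26, 8.72 and 9.04, and Kif20b differed by 2.59. The neighbouring list of DNA replication and G1/S did not share this median: 10 of 40 genes were higher and 1 was lower, with a median of 0.095 that turned to -0.094 with median scaling. Pole, a DNA polymerase subunit, differed by 1.90 and Rrm1, a ribonucleotide reductase subunit, by 1.20.

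Genes of RNA splicing and translation were also mostly above the background share. Of 43 splicing factors, 11 were higher and 0 lower, with a median of 0.27 that was 0.033 with median scaling. Hnrnpa1, an abundant RNA-binding repressor of splice sites, had 12.07, 12.51 and 12.65 on the replicate 1 arrays, against 9.82, 9.61 and 10.15 on the replicate 2 arrays. Clk1 and Clk4, kinases of SR proteins, each differed by 1.48.

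Of 27 initiation and elongation factors, 8 were higher and 2 lower, with a median of 0.42. Eif3a, the large scaffold subunit of initiation factor 3, differed by 2.16, whereas Eef2, the translocation factor of elongation, passed as lower with -1.07. Among 72 zinc finger transcription factors of the KRAB type, which repress transposons and other targets, 19 were higher and 0 lower, with a median of 0.40 (0.34 in HFGSC, 0.54 in GSC and -0.031 in HF). Zfp943 had 11.37, 11.31 and 10.46 on the replicate 1 arrays, against 8.80, 9.02 and 8.74 on the replicate 2 arrays.

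The lists of ribosome, proteasome and respiratory chain genes had medians between -0.20 and 0.077. Of 50 cytosolic ribosomal protein genes, 3 were higher and 0 lower, and the median of 0.077 turned to -0.24 with median scaling. Rps3a1 was the exception in size, with 10.58, 10.85 and 11.23 on the replicate 1 arrays, against 9.35, 7.87 and 8.91 on the replicate 2 arrays, and ribosomal protein genes have many near-identical processed copies. Of 26 proteasome genes 4 were higher (15.4%) and 0 lower, with a median of 0.068 that turned to -0.27 with median scaling. Of 71 mitochondrial ribosomal protein genes 1 was higher and 2 were lower (median -0.20), and of 65 nuclear-encoded genes of the respiratory chain and ATP synthase 0 were higher and 2 lower (median -0.12).

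Transcripts of the mitochondrial genome itself had a higher median than those nuclear genes, and were singled out after their values were seen. Of 6 tested, 4 passed as higher in replicate 1, and the median difference was 1.07. Some nuclear genes of the respiratory chain list were also higher in 2 pairs. Atp5a1 and Sdhd differed by 2.32 and 2.17 in the GSC pair, 2.06 and 2.30 in the HF pair, and -0.055 and -0.41 in the HFGSC pair. COX2, a subunit of cytochrome oxidase, had 14.08 (HFGSC), 14.01 (GSC) and 13.55 (HF) on the replicate 1 arrays, against 13.05, 11.14 and 11.13 on the replicate 2 arrays. CYTB, of the same genome, had 16.01, 15.97 and 15.80 on the replicate 1 arrays, against 15.84, 15.91 and 15.36 on the replicate 2 arrays, and did not pass (limma adjusted p 0.198). These mRNAs derive from shared precursor transcripts, and their differences ranged from -0.44 for ND5 to 2.11 for COX2.

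On the lower side, interferon response genes had 0 of 28 higher and 8 lower, with a median of -0.77 (-1.31 in HFGSC, -0.37 in GSC and -0.77 in HF). The 8 were Tap1, Tap2, Bst2, Tapbp, Usp18, Isg15, Ifi35 and Ifi27, which include parts of the peptide loading machinery and classical interferon-stimulated genes. Tap2, the partner of Tap1 in the peptide transporter, had 9.44, 8.62 and 7.86 on the replicate 1 arrays, against 11.56, 9.59 and 9.02 on the replicate 2 arrays. Isg15, a ubiquitin-like modifier, had 8.34, 7.16 and 9.06 against 10.05, 7.81 and 11.32. Not all members ran this way: Gbp3 and Ifit2 differed by 0.80 and 0.68 and did not pass.

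Of 44 replication-dependent histone genes, 0 were higher and 8 were lower, with a median of -0.48 (-0.47 in HFGSC, -0.81 in GSC and -0.15 in HF). No member was higher in all 3 pairs, against 22.0% of all tested genes, and 21 of the 44 were lower in all 3, against 35.5%. H2bc14, a histone H2B gene, had 8.75, 8.79 and 9.93 on the replicate 1 arrays, against 10.28, 9.98 and 10.95 on the replicate 2 arrays. H2ac19, a histone H2A gene, differed by -1.35. Histone genes of a type are nearly identical in sequence, so probes may read several of them.

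Immediate early genes, which are induced within minutes of a stimulus, had 0 of 29 higher and 4 lower, with a median of -0.40. Jun had 9.14, 8.39 and 9.95 on the replicate 1 arrays, against 11.88, 9.37 and 10.69 on the replicate 2 arrays (limma adjusted p 0.0484). Ccn2, a matrix-associated target of several growth pathways, had 9.13, 8.75 and 12.39 against 12.52, 9.60 and 13.50. Both genes were farthest apart in the HFGSC pair.

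Of 38 genes of the integrated stress and unfolded protein responses, 2 were higher and 4 lower (median -0.31). Eprs, a tRNA synthetase, differed by 2.07, whereas Sars, another synthetase, differed by -0.87. Chac1, a target of the stress factor ATF4, passed as lower with -0.92.

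The remaining function lists were mixed. Of 29 lysosome and autophagy genes 3 were higher and 3 lower (median -0.23), with Lamp2, a lysosomal membrane protein, at 1.46 and Ctsa, a lysosomal peptidase, at -1.18. Of 18 cholesterol genes 2 were higher and 1 lower (median -0.0059): Idi1 and Stard4 differed by 1.88 and 1.72 and Tm7sf2 by -0.92. Of 27 oxidative stress genes 0 were higher and 2 lower (median -0.23), and of 25 p53 targets 1 was higher and 1 lower (median -0.33). Hmox1, the inducible heme oxygenase, was among the lower genes with -0.95. Of 6 nuclear long noncoding RNAs 0 were higher and 1 was lower (median 0.063), namely Snhg12. Of 14 genes often used as references, 2 were higher (14.3%) and 0 lower (median -0.054), near the shares of all tested genes (9.69% and 3.85%). Among them, Tfrc, the transferrin receptor, had 11.38, 13.32 and 12.11 on the replicate 1 arrays, against 9.38, 11.10 and 10.11 on the replicate 2 arrays.

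**Figure D4:**
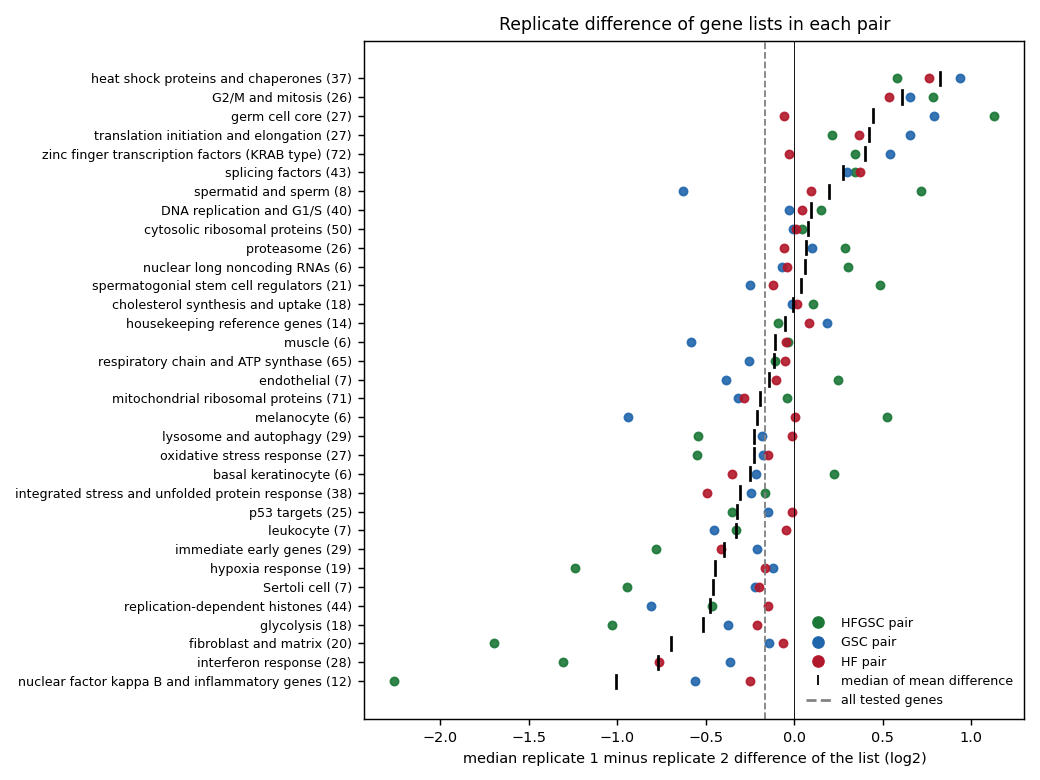
Each row is a gene list with the number of genes tested in brackets, coloured points are the median replicate 1 minus replicate 2 difference (log2) in each pair, black ticks are the median of the mean difference, and the dashed line is the median of all tested genes (-0.17). Chaperones and mitotic genes lie to the right in all 3 pairs, and the HFGSC pair lies far to the left for inflammatory and fibroblast genes.

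The HFGSC pair differed from the other 2 in a further group of genes. Among 3602 genes whose difference was within 0.5 in both other pairs, 166 were at least 2-fold higher and 351 at least 2-fold lower in the HFGSC pair. The corresponding counts were 50 higher and 161 lower of 3534 for the GSC pair, and 26 higher and 84 lower of 2946 for the HF pair. The HFGSC pair was also the farthest apart over all genes, at 0.986 against 0.861 (GSC) and 0.737 (HF). With 1 pair a group there is no test of the difference between pairs. Fewer cells of a type and less RNA per cell cannot be told apart in these bulk samples.

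The fibroblast and matrix list differed most in the HFGSC pair. The median difference over its 20 tested genes was -1.70 in the HFGSC pair, -0.14 in the GSC pair and -0.066 in the HF pair. Of the 20 genes, 12 were detected on all 6 arrays. The HF median includes genes near background on both HF arrays, such as Dcn (5.22 and 4.93) and Lox (5.12 and 5.07), which could show no difference there. Acta2 and Fn1 differed by -1.39 and -1.35 in the HF pair, and S100a4 by 1.87. Over all 3 pairs 0 genes were higher and 2 lower by limma. Vim, the mesenchymal intermediate filament, had 10.29 in HFGSC replicate 1 against 12.54 in HFGSC replicate 2, and 14.36 against 14.39 in the HF pair. Loxl1, an enzyme of elastic fibre crosslinking, was lower in every pair, with 12.17, 11.52 and 9.82 on the replicate 1 arrays, against 13.88, 12.26 and 11.19 on the replicate 2 arrays.

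Inflammatory genes had their lowest median in the same pair. The 12 genes of the nuclear factor kappa B list had a median of -2.26 in the HFGSC pair, -0.56 in the GSC pair and -0.25 in the HF pair, with 0 higher and 1 lower by limma. Of these 12, 8 were detected on all 6 arrays. Ccl2, a chemokine for monocytes, had 7.84 in HFGSC replicate 1 against 11.24 in HFGSC replicate 2, and differed by 0.31 in the GSC pair and -0.02 in the HF pair. The lowest gene of the HFGSC pair among those within 0.5 in the others, named after its values were seen, was Serpina3n, a secreted protease inhibitor, at 6.21 in replicate 1 against 11.61 in replicate 2. Of 19 hypoxia genes 2 were higher and 3 lower, with medians of -1.24 (HFGSC), -0.12 (GSC) and -0.17 (HF). Of 18 glycolysis genes 0 were higher and 3 lower, with medians of -1.03, -0.37 and -0.21. Eno2, a glycolytic enolase, had 10.46 against 13.51 in the HFGSC pair, and passed as lower over the 3 pairs (limma adjusted p 0.0385).

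Germ cell genes had medians above 0 in the 2 germline groups. The median of 27 core germ cell genes was 1.13 in the HFGSC pair, 0.79 in the GSC pair and -0.058 in the HF pair, where Dazl, Ddx4 and Mov10l1 were not detected, and 1 gene passed as higher and 0 as lower. That gene, Tdrkh, a Tudor protein of the piRNA pathway, had 12.50, 12.85 and 8.77 on the replicate 1 arrays, against 10.45, 11.59 and 6.84 on the replicate 2 arrays. Stk31, a Tudor-domain kinase-like protein of germ cells, differed by 2.92 in HFGSC, 4.35 in GSC and 0.05 in HF. Of the 27 genes, 3 were detected on all 6 arrays. The spermatogonial stem cell regulators had medians of 0.48, -0.25 and -0.12 in the HFGSC, GSC and HF pairs, and 0 of 21 passed limma in either direction, of which 4 were detected on all 6 arrays. Their receptor Ret had 14.69 and 14.03 on the HFGSC and GSC replicate 1 arrays, against 14.30 and 14.42 on the replicate 2 arrays.

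Other cell type lists held few tested genes. Of 7 Sertoli cell genes and 7 leukocyte genes 0 passed by limma, with medians of -0.46 and -0.33, and of 6 basal and 4 differentiated keratinocyte genes 0 passed, with medians of -0.25 and 0.16. Of 7 endothelial genes 1 was higher, the receptor Flt1 with 1.02, and of 6 muscle genes 1 was lower, the filament protein Des with -1.09. Of 8 spermatid, 6 melanocyte, 3 adipocyte and 2 erythroid genes 0 passed by limma, with medians of 0.19, -0.21, 0.12 and -0.23. Over the 13 cell type lists, 3 genes were lower and 2 were higher. The part of cell mixture in the replicate difference was not tested.

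Y-linked probes, which check whether pairs match in the sex of the cells, were read in every array. Eif2s3y, a Y-linked initiation factor subunit, had 10.77 (HFGSC), 11.04 (GSC) and 4.92 (HF) on the replicate 1 arrays, against 7.80, 7.80 and 4.92 on the replicate 2 arrays, with its probe detected on both arrays of HFGSC and GSC and neither of HF. It did not pass (limma adjusted p 0.0585). A probe of Kdm5d, for a Y-linked histone demethylase, was detected on all 3 replicate 1 arrays and on 0 replicate 2 arrays, with 6.60, 7.31 and 6.96 against 5.43, 5.07 and 5.10, while its other probe was detected on 0 arrays. The second Eif2s3y probe was detected on 1 of the 6 arrays, and the other 3 Uty probes on 0. Uty had 6.67, 6.83 and 7.19 on the replicate 1 arrays, against 6.11, 6.30 and 7.11 on the replicate 2 arrays. Usp9y, a Y-linked deubiquitinase named after its values were seen, had 10.96, 11.86 and 4.94 on the replicate 1 arrays, against 7.98, 9.44 and 4.96 on the replicate 2 arrays, and did not pass (limma adjusted p 0.0666). On the HF arrays, Usp9y and Eif2s3y were thus near background in both replicates, while a Uty probe was detected on both.

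The replicate difference also went with the length of a gene in the genome. The span from start to end in RefSeq (GRCm38.p6) was known for 10899 genes, and its Spearman correlation with the mean difference across genes was 0.268 (0.215 in the HFGSC, 0.288 in the GSC and 0.195 in the HF pair), as a description across genes. Genes were divided into 10 bins of equal size by span. In the bin of shortest span (median 2.45 kb), the median difference was -0.32, and 1.83% passed as higher and 5.87% as lower. In the ninth bin (median 83.7 kb), the median difference was 0.11, and 19.4% passed as higher and 1.47% as lower. The bin of longest span (median 177 kb) had 12.7% higher and 0.642% lower. Genes at least 2-fold higher in all 3 groups had a median span of 47.3 kb, and those at least 2-fold lower 15.7 kb, against 21.9 kb for all tested genes.

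Length was not shared by every named gene. Hsp90aa1 spans 5.36 kb and Bzw1 14.5 kb, and 12 of the 15 genes highest in replicate 1 were longer than the median. Sil1, at 233 kb, was lower in replicate 1. The mean log2 signal (Spearman 0.0275) and the GC content of the promoter (0.0266, known for 81% of genes) showed little rank correlation with the difference. The share passing as higher was uneven all the same. It was 7.69% in the bin of lowest promoter GC and 13.9% in the highest. By signal it was 0.183% in the dimmest bin, 13.9% in the seventh and 8.24% in the brightest. Among the autosomes and chromosome X, the median difference ranged from -0.30 on chromosome 15 (450 genes) to 0.18 on chromosome X (350 genes). On chromosome X 49 genes were higher in replicate 1 (14%) and 1 was lower (0.286%), against 9.69% and 3.85% of all tested genes. The share higher was not particular to it, at 17.1% on chromosome 18 and 13.3% on chromosome 13.

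**Figure D5:**
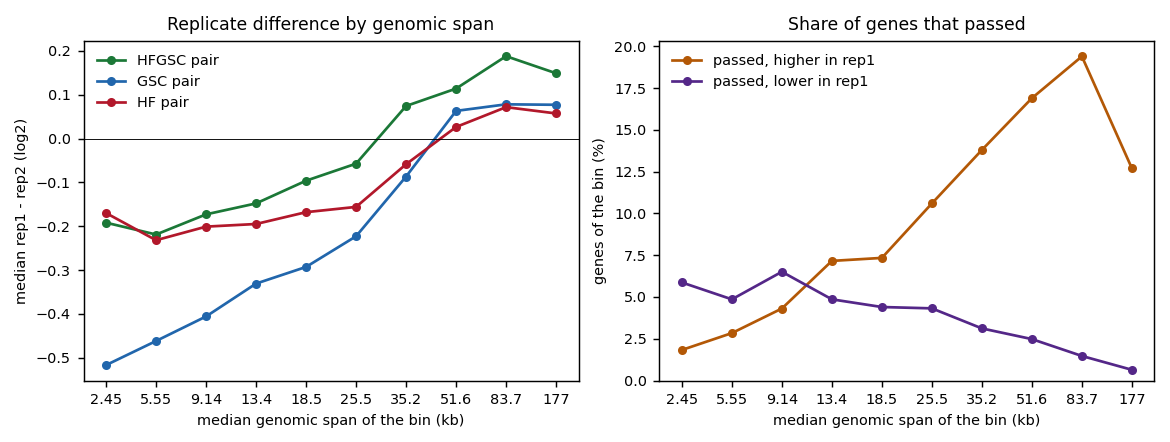
Genes were put into 10 bins by genomic span (horizontal axis, median of the bin in kb), with the median replicate 1 minus replicate 2 difference (log2) of each pair on the left and the percentage of genes that passed limma in each direction on the right. The median difference is below 0 for short genes in all 3 pairs, and the share passing as higher goes up to 19.4% in the ninth bin.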

How the data were processed

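RNA from 6 mouse samples was hybridised to Illumina bead arrays. The deposited table of intensity values holds the authors' bead summary intensities, linear and not normalized, and beside each a detection p-value, per the file headers. The authors' quantile-normalized log2 values, in another deposited table, served as an alternative. Per the submitters' processing notes, the tools were GenomeStudio 2011.1 and R 3.0.2. No genome build bears on these values.

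Here, neqc (limma 3.58.1, R 4.3.3) turned intensities into log2 signals (background from detection p-values, offset 16, quantile normalization, log2). The filter kept a probe if both arrays of any group detected it (p under 0.05). Each gene was read by its brightest kept probe. Of 45281 probes, 34885 had 1 gene symbol, 18 several and 10378 none, and 34807 matched RefSeq (GRCm38.p6) by Entrez identifier. The limma fit had group as a block, a mean-variance trend and Benjamini-Hochberg adjustment over 10913 genes. The fit was also run on simulated arrays with planted replicate differences and errors drawn independently for each gene. That setting has no link between the errors of different genes, so it does not check the calls made here. All 6 value columns were used, leaving 0 unused. The number of arrays limits the precision.

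The members and the 37 gene lists were chosen with earlier results of these data known. Named genes were the 15 higher and 15 lower genes with 1 sign whose smallest difference over the 3 groups was largest, up to 4 per list by the same measure, the Y-linked probes, and other kept probes of the first set. Genes named outside this rule, the genomic span, promoter, chromosome and single-pair descriptions, and a filter that also keeps probes detected on all 3 arrays of 1 replicate number were chosen after seeing the data. Alternatives were the authors' values, median scaling, no background correction, an offset of 50, other filters, the mean of a gene's probes, no trend, no group block and leaving out each pair.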

Additional observations from a re-analysis of the deposited data

Results flagged for a closer look

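In 22 genes the HFGSC pair ran at least 2-fold one way and both other pairs at least 2-fold the other way, which happened in 2 genes for the GSC pair and 1 for the HF pair; the difference was not tested. In 21 of the 22 the HFGSC pair was the lower one. Col3a1, a fibrillar collagen chain, had 9.30 (HFGSC), 9.38 (GSC) and 9.79 (HF) on the replicate 1 arrays, against 11.01, 7.26 and 8.13 on the replicate 2 arrays. Idh2, a mitochondrial dehydrogenase, differed by -2.67 in the HFGSC pair, against 1.55 in the GSC and 1.11 in the HF pair. Map2k1, a kinase of the ERK cascade, differed by -1.13, 2.29 and 2.79 in the same order.

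Among the 2947 kept probes with no gene name, which entered no comparison above, 156 (5.29%) were at least 2-fold higher in replicate 1 in all 3 groups and 11 (0.373%) were at least 2-fold lower. Of all 45281 probes, 290 were detected on all 3 replicate 1 arrays and on no replicate 2 array, and 78 the other way round, while 13061 were detected on all 6 arrays. The filter on dim probes asks for both arrays of a group and so cannot keep those 368 probes.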

How the results depend on the processing

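With the authors' log2 values 235 genes passed limma as lower, and 321 genes were at least 2-fold higher and 2 lower in all 3 groups. Without background correction these counts were 273, 330 and 3, and an offset of 50 gave 19 genes at least 2-fold lower. Median scaling gave 2648 genes in all, 1569 of them lower. With probes detected on all 6 arrays 815 genes passed limma as lower and the probe correlation was 0.752. With no filter, 939 genes passed limma as higher and 183 as lower. By sign alone, 3619 genes were then higher in all 3 groups and 5520 lower. Ttn, which did not pass either way, turned to -0.35 (limma adjusted p 0.336). With replicate number alone and no group block, 0 genes passed limma, 0 higher and 0 lower (992 at an unadjusted p under 0.05). At a detection p under 0.01 the difference in detected probes was 811. Leaving out 1 pair at a time, 0 to 4137 genes passed limma (0 to 1924 higher, 0 to 2213 lower), 537 to 847 were at least 2-fold higher and 142 to 248 lower in both remaining groups, and the correlation of pair differences was 0.436 to 0.757. Of 155 named genes, 103 lost their call without the GSC pair, 27 without the HF pair and 1 without the HFGSC pair, and Ttn was the only one to turn its sign under the settings run. A filter that also keeps probes detected on all 3 arrays of 1 replicate number, chosen after seeing the data, moved none of the 155. The cause of these shifts was not tested, except that fewer pairs and other filters change how many genes can pass. The comparison itself pairs arrays within groups, with group as the block. Beyond this pairing within groups, no paired analysis was possible because, with the replicate number as a further block, the contrast itself would be removed. With 3 pairs an exact permutation test cannot give a p below 0.25.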
